A study of Mus musculus with 6 samples.

Results

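The fusion of mononuclear precursors into the multinucleated osteoclast was followed through 10 genes on the arrays, namely Dcstamp, Ocstamp, Cd44, Cd47, Sirpa, Cd200, Cd200r1, Syna, Synb and Sh3pxd2a. The genes were taken as a list of names, and every array feature that carries one of these names and is not a control spot was included. All 10 were found among the 37074 gene names of the array, on 20 of its 56605 features. Of the 20, 15 features of 8 genes entered the test, which asked for a signal well above background on each of the 3 arrays of 1 group or of both and covered 31848 features in all. The probes of Syna and Synb did not pass that filter.

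The samples were osteoclast cultures from 3 Ano1fl/fl mice and 3 Ctsk-Cre;Ano1fl/fl littermates, each treated with RANKL for 5 days, and each culture was measured on its own Agilent array with the single dye Cy3. The methods describe such cultures as bone marrow of 6- to 8-week-old mice, kept with M-CSF and then with M-CSF and RANKL. Both groups carry loxP-flanked Ano1, the gene of a calcium-activated chloride channel. In the Ctsk-Cre;Ano1fl/fl mice the Cre recombinase is driven by Ctsk, the cathepsin K gene, so deletion depends on a gene that osteoclasts switch on as they mature, and the controls lack the Cre. The comparison asks how loss of Ano1 in osteoclasts goes together with the transcripts of the fusion machinery.

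The single probe of Ano1 was not well above background on any of the 6 arrays, so the genotype cannot be checked from the target itself and every direction below is that of the label. By other assays the study describes osteoclast marker transcripts as lower in osteoclasts lacking Ano1, the opposite of what these arrays show under their labels. It describes Fos protein as lower too, the direction that the Fos transcript has here under the labels. By TRAP staining it also reports fewer multinucleated osteoclasts in Ctsk-Cre;Ano1fl/fl cultures after 5 days of RANKL. That count reads fusion in cells, while the arrays read transcripts. Whether the labels were exchanged was not tested, and an exchange would turn every direction given here. Each array had 33480 to 34951 of 59305 spots well above background and none saturated, and all 6 arrays came from 1 slide and 1 scan. Across features, arrays of the same group correlated at r = 0.9941 to 0.9965 and arrays of different groups at 0.9440 to 0.9498. All 8 osteoclast markers, a list that includes Dcstamp and Ocstamp, were higher in Ctsk-Cre;Ano1fl/fl, the other 6 as well as that pair, with summed normalized signals of 137800 to 149100 in Ano1fl/fl and 469400 to 526300 in Ctsk-Cre;Ano1fl/fl. Of that list 7 genes were above background on all 6 arrays, while Calcr was above it on 2 of the 3 Ano1fl/fl arrays only and near background there, with processed signals of 13.4 to 22.0 against 6668 to 8373 in Ctsk-Cre;Ano1fl/fl. The macrophage list (1 of 7 higher, 2 lower) had sums of 350800 to 371800 and 369600 to 417400. Over all 20650 tested genes 4753 were higher and 5893 lower. Beside that share the macrophage, T cell and endothelial counts are not read as shifts of those cells. Summed signals of other cell types also differed between the groups. The stromal list (10 of the 11 tested of 12 genes higher) summed to 2708 to 3572 in Ano1fl/fl and 59940 to 99950 in Ctsk-Cre;Ano1fl/fl, with Lum and Pdgfra not well above background in Ano1fl/fl, and the neutrophil list (1 of 6 higher, 4 lower) summed to 120800 to 130700 and 36110 to 44060. The T cell list (1 of 4 higher, 1 lower) summed to 1157 to 1318 and 2634 to 4467, with Lck as its only risen gene (log2 difference 2.665). Cd3e was lower (-0.514), and Cd3d and Cd3g had negative differences that were not called (-0.352 and -0.415). The endothelial list (1 of the 3 tested of 5 genes higher, Tek and Tie1 never above background) summed to 194.8 to 216.1 and 232.8 to 321.5. In such mixed cultures fewer cells of a type and less RNA per cell cannot be told apart.

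Osteoclasts form when precursors of the monocyte and macrophage lineage, exposed to M-CSF and RANKL, attach to each other and merge their membranes. Dcstamp and Ocstamp are multipass membrane proteins without which the precursors stay largely mononuclear. Around them act recognition pairs that also restrain macrophages, Cd47 with its receptor Sirpa and Cd200 with its receptor Cd200r1, the hyaluronan and osteopontin receptor Cd44, the envelope-derived syncytins encoded by Syna and Synb, and Sh3pxd2a, which encodes the podosome scaffold Tks5.

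Each array feature is a DNA probe of 60 bases, and the signal of a gene is the signal of that short stretch of its transcript. The probes below are those on which the rises rest. For each, 30 of the 60 bases are printed 5′ to 3′ in the sense of the transcript, as deposited with the arrays, named by gene and by the base of the transcript at which the probe starts. Capitals mark the hexamer AATAAA, which is the usual signal for cleavage and polyadenylation near a transcript's end and was searched on the printed strand only.
Dcstamp 1560, bases 1 to 30: ctgcctttctctttggtgatccttcaagat
Dcstamp 1935, bases 31 to 60: ccttaagcccaAATAAAtccttccttctat
Ocstamp 1886, bases 31 to 60: ctagacttctgacgtttagtgAATAAAaat
Cd200 716, bases 1 to 30: aggaattgagaatagtaccgagagtcactt
Cd200 2148, bases 1 to 30: gtctttatagagtgacctaggaattcaagt
Sh3pxd2a 10309, bases 1 to 30: actttggtgggactctttgatctgtagaaa

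The hexamer occurred in 3 of the 15 tested probes of these genes (1 each of Dcstamp, Ocstamp and Cd200r1) and in 10.69% of all tested probes. Over untested probes too it was 3 of 20 and 9.77% of 56605. Its presence describes the probe sequence only.

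Of the 15 tested probes, 6 were higher in Ctsk-Cre;Ano1fl/fl (40.0%, against 21.8% of all tested probes called higher) and 3 were lower (20.0%, against 30.6% of all tested probes called lower), by limma at a Benjamini-Hochberg adjusted p under 0.05. The values of the groups did not overlap for 9 of the 15 probes (60%), whereas this held for 64.0% of all tested probes. With a limit of more than 2-fold added, 6 of the 15 were higher (8.91% of all tested probes) and 0 lower (8.11% of all). By the brightest probe 4 of the 8 genes were higher (23.4% of all tested genes), and by the mean of a gene's probes also 4 (22.1% of all). The median log2 difference of the 15 probes was 0.03 and that of all tested probes was -0.09. Split by gene, the 6 risen probes belonged to Dcstamp, Ocstamp, Cd200 and Sh3pxd2a, the 3 lower probes to Cd44, Cd47 and Sirpa, and both probes of Cd200r1 were not called. A permutation of 3 against 3 arrays cannot reach a two-sided exact p below 0.1, which is why the calls rest on the moderated fit over all probes.

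**Figure D1:**
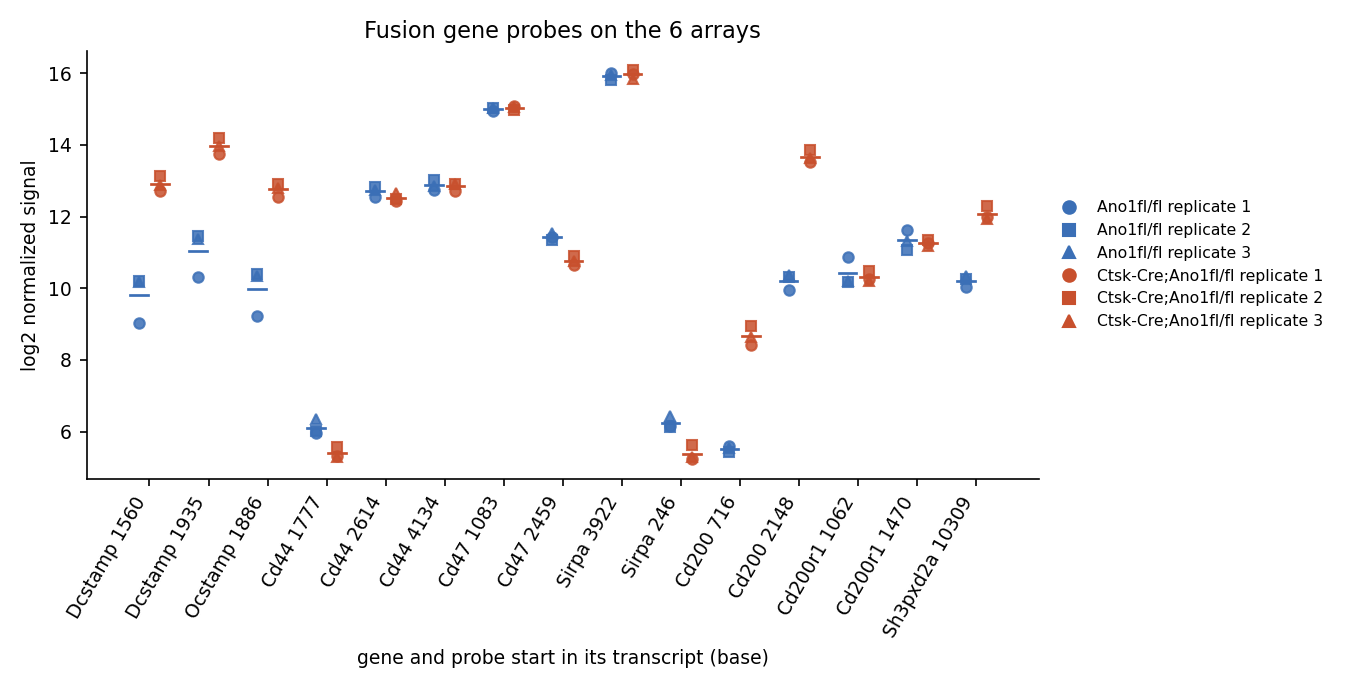
Log2 normalized signal (vertical axis) of the 15 tested probes on each of the 6 arrays, with blue for Ano1fl/fl, orange for Ctsk-Cre;Ano1fl/fl, a symbol for each replicate and a bar for each group mean. The probes of Dcstamp, Ocstamp, Cd200 and Sh3pxd2a separate widely between groups, and Ano1fl/fl replicate 1 lies below the other arrays of its group for Dcstamp and Ocstamp. Heights of different probes are not comparable.

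Transcript signals of Dcstamp and Ocstamp, the multipass membrane proteins needed for fusion, were both higher in Ctsk-Cre;Ano1fl/fl. The Dcstamp probe at base 1560 (mm9 chr15:39592046-39592105, plus strand) had log2 normalized signals of 9.04, 10.21 and 10.18 in the Ano1fl/fl cultures and of 12.71, 13.12 and 12.87 in the Ctsk-Cre;Ano1fl/fl cultures. Every Ctsk-Cre;Ano1fl/fl array was above every Ano1fl/fl array, and Ano1fl/fl replicate 1 was the lowest of the 6. It rose by a log2 difference of 3.09 ± 0.33 (SE, limma adjusted p = 0.00056), or 8.52-fold.

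The second Dcstamp probe lies 375 bases further along the same transcript (chr15:39592421-39592480) and gave 10.31, 11.47 and 11.38 in Ano1fl/fl and 13.73, 14.20 and 13.98 in Ctsk-Cre;Ano1fl/fl. Here too the groups were fully apart, and the same Ano1fl/fl array was low. Its log2 difference was 2.92 ± 0.32 (SE, limma adjusted p = 0.00065). The probes of this gene thus gave differences of similar size, with a gap of 0.17 between them on the log2 scale.

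Ocstamp has a single probe (chr2:165220960-165221019, minus strand). Its log2 normalized signals were 9.22, 10.40 and 10.34 in Ano1fl/fl and 12.56, 12.91 and 12.81 in Ctsk-Cre;Ano1fl/fl. The pattern over arrays matched that of Dcstamp, with a low first Ano1fl/fl array and no overlap. Ocstamp was higher by 2.77 ± 0.32 on the log2 scale (SE, limma adjusted p = 0.00077), or 6.83-fold.

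The low signal of Ano1fl/fl replicate 1 was large compared with the usual spread between arrays. Its log2 signal minus the mean of replicates 2 and 3 was -1.16 and -1.12 for the Dcstamp probes and -1.14 for Ocstamp. The standard deviations of these probes within Ano1fl/fl were 0.67, 0.65 and 0.66, while the median over all tested probes was 0.12 in that group, and only 1.1%, 1.24% and 1.16% of all tested probes had a larger one. In Ctsk-Cre;Ano1fl/fl their standard deviations were 0.21, 0.24 and 0.18, beside a median of 0.14.

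The other osteoclast markers did not show a drop of that size on the same array. The difference between Ano1fl/fl replicate 1 and the mean of the other arrays of its group was -0.12 for Acp5, 0.30 for Ctsk, 0.04 for Oscar, -0.40 for Calcr (above background on 2 of the 3 arrays), -0.40 for Atp6v0d2 and -0.48 for Mmp9. Among the remaining fusion genes described below, Ccl2 showed a drop of similar size, with -1.21. Without that array the differences of the Dcstamp probes were 2.70 and 2.55 and that of Ocstamp was 2.39, and all were still called higher.

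**Figure D2:**
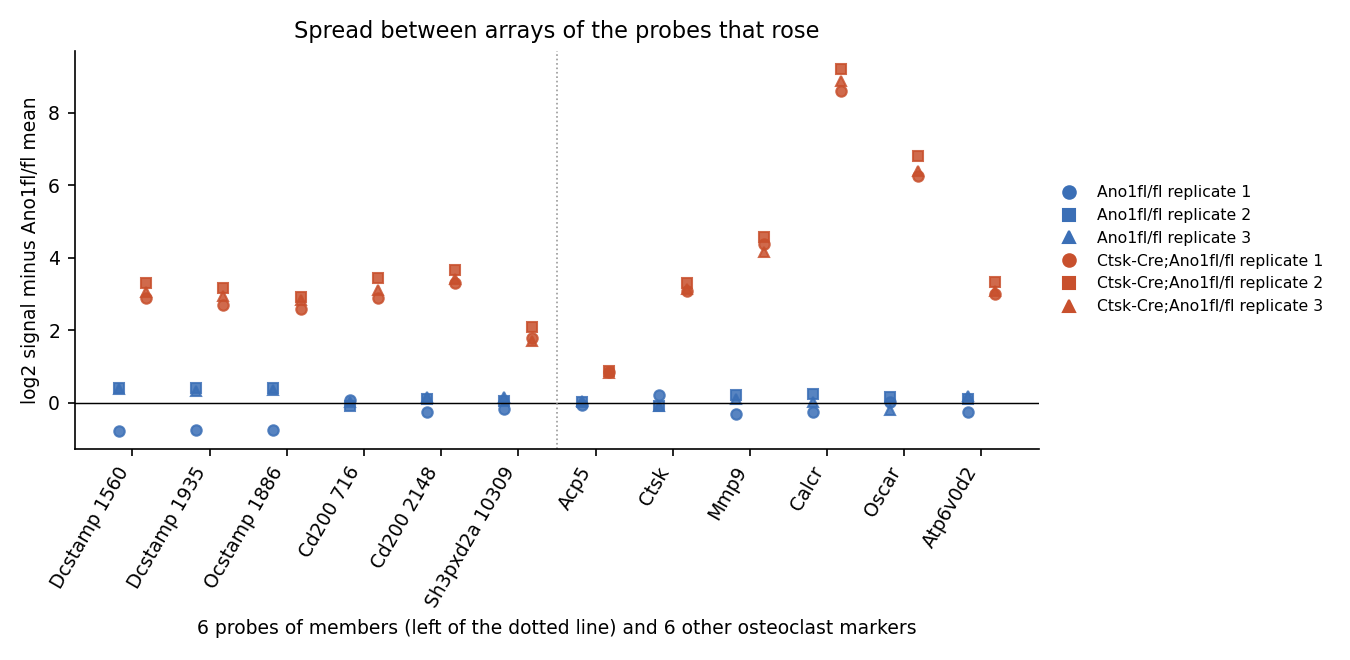
Log2 signal minus the Ano1fl/fl mean (vertical axis) for the 6 risen probes of the fusion genes, left of the dotted line, and for 6 other osteoclast markers, with the groups and replicates by colour and symbol. Ano1fl/fl replicate 1 stands apart from the other arrays of its group for the Dcstamp and Ocstamp probes, less so for Mmp9, Atp6v0d2 and Calcr (-0.48 to -0.40), and is the highest of its group for Ctsk (0.30), and it remains below all Ctsk-Cre;Ano1fl/fl arrays.

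Among the recognition pairs, the ligand Cd200 rose and its receptor was not called. Cd200 is a membrane glycoprotein of the immunoglobulin superfamily that restrains myeloid cells through Cd200r1 and appears on macrophages as they fuse, and it is also known from lymphoid, endothelial and stromal cells. The brighter probe (base 2148, chr16:45382387-45382446, minus strand) gave 9.96, 10.32 and 10.37 in Ano1fl/fl and 13.52, 13.86 and 13.63 in Ctsk-Cre;Ano1fl/fl. The groups were far apart relative to either group's spread. The rise came to a log2 difference of 3.46 ± 0.14 (SE, limma adjusted p = 1.9e-05), or 10.97-fold, and 1.79% of all tested probes had a larger one.

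A probe of Cd200 closer to the transcript's start (base 716, chr16:45394810-45394869) gave 5.60, 5.43 and 5.54 in Ano1fl/fl and 8.41, 8.96 and 8.63 in Ctsk-Cre;Ano1fl/fl. The Ano1fl/fl arrays were dim but above background, and the groups did not overlap. The log2 difference of this probe was 3.15 ± 0.15 (SE, limma adjusted p = 2.8e-05). With normexp background correction it came to 2.10 (adjusted p = 4.0e-06). A Cd200 probe for another transcript (ENSMUST00000167552, chr16:45399727-45399786) was not well above background on any of the 6 arrays. The stromal sums rose over the same arrays, from 2708 to 3572 in Ano1fl/fl to 59940 to 99950 in Ctsk-Cre;Ano1fl/fl, and their part in the Cd200 difference was not tested.

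Cd200r1, the inhibitory receptor of Cd200 on myeloid cells, was measured by a pair of probes on the same transcript, and its values overlapped between groups. The probe at base 1062, whose 60 bases span 1387 bases of the genome (chr16:44792935-44794321, plus strand), gave 10.89, 10.18 and 10.21 in Ano1fl/fl and 10.27, 10.47 and 10.21 in Ctsk-Cre;Ano1fl/fl. Ano1fl/fl replicate 1 was the highest of all, opposite to its place for Dcstamp. The log2 difference was -0.11 (95% interval -0.60 to 0.38, limma adjusted p = 0.68).

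The probe of Cd200r1 at base 1470 (chr16:44794670-44794729) gave 11.64, 11.08 and 11.31 in Ano1fl/fl and 11.26, 11.36 and 11.17 in Ctsk-Cre;Ano1fl/fl, again with overlap and with Ano1fl/fl replicate 1 on top. Its log2 difference was -0.08 (95% interval -0.44 to 0.28, limma adjusted p = 0.68). A shift of Cd200r1 inside these intervals was not detectable with 3 arrays a group. Without Ano1fl/fl replicate 1 the differences turned to 0.12 and 0.07.

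**Figure D3:**
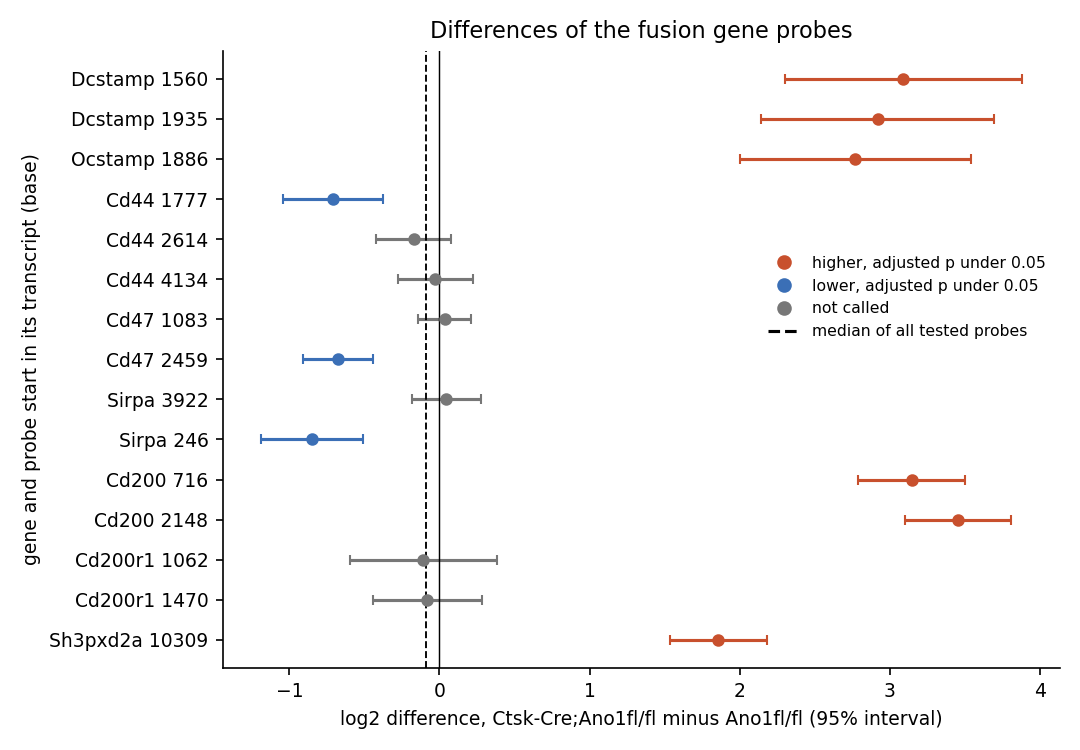
Log2 difference, Ctsk-Cre;Ano1fl/fl minus Ano1fl/fl, with its 95% interval (horizontal axis) for the 15 tested probes, coloured by the call at an adjusted p under 0.05, beside the median of all tested probes (dashed). The 6 risen probes lie between 1.86 and 3.46 and the 3 lower probes between -0.85 and -0.68.

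For Cd47, Sirpa and Cd44 the answer depended on the probe. In each of these genes the brightest probe was not called, and another probe was lower in Ctsk-Cre;Ano1fl/fl. Their probes are printed here because they read different stretches of the transcript, again as bases 1 to 30 of 60. In all 3 genes the lower probe was also the less bright one, and dim in Sirpa and Cd44, so place and brightness cannot be told apart.
Cd47 1083, not called: tatccaacctcctaggaataggtgaaggga
Cd47 2459, lower: gcagaggcgtggcatctacagaagagcaga
Sirpa 3922, not called: atgagaaggaaacaggccctgttttgtaca
Sirpa 246, lower: tactctccaaccatgtagaacctaactggg
Cd44 1777, lower: acagatttcttcgacccaatctcacatcca
Cd44 2614, not called: gacgagacccggaatctgcagagtgtggac
Cd44 4134, not called: atattaactctataaaataaggctgtccct

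Cd47 is the broadly expressed surface protein that binds Sirpa and tells macrophages not to engulf a cell. Its probe at base 1083 of NM_010581 has 60 bases that span 4116 bases of the genome (chr16:49906910-49911025, plus strand) and so crosses at least 1 splice junction. It gave log2 normalized signals of 14.96, 15.04 and 15.03 in Ano1fl/fl and 15.09, 14.99 and 15.06 in Ctsk-Cre;Ano1fl/fl. The arrays overlapped within a narrow range, and the log2 difference was 0.03 (95% interval -0.14 to 0.21, limma adjusted p = 0.72). With 75th percentile scaling it was -0.06.

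The other Cd47 probe, designed on ENSMUST00000084838 (base 2459, chr16:49912306-49912365), gave 11.43, 11.36 and 11.54 in Ano1fl/fl and 10.65, 10.89 and 10.76 in Ctsk-Cre;Ano1fl/fl. All Ctsk-Cre;Ano1fl/fl arrays were below all Ano1fl/fl arrays, and the probe was bright in both groups. Cd47 at this place had a log2 difference of -0.68 ± 0.10 (SE, limma adjusted p = 0.0018), a 1.60-fold lower signal.

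Sirpa, the inhibitory receptor of Cd47 on macrophages, showed the same kind of split. The probe at base 3922 of NM_007547 (chr2:129457869-129457928, plus strand) gave 16.00, 15.82 and 15.96 in Ano1fl/fl and 15.98, 16.09 and 15.85 in Ctsk-Cre;Ano1fl/fl. These overlapped, with a log2 difference of 0.05 (95% interval -0.19 to 0.28, limma adjusted p = 0.72), and 75th percentile scaling turned it to -0.07.

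The Sirpa probe at base 246 of ENSMUST00000162764, a different transcript model 11202 bases upstream in the genome (chr2:129446667-129446726), gave 6.16, 6.13 and 6.43 in Ano1fl/fl and 5.23, 5.64 and 5.31 in Ctsk-Cre;Ano1fl/fl. It was dim on every array, though above background on all 6. The log2 difference was -0.85 ± 0.14 (SE, limma adjusted p = 0.0032), and normexp correction brought it to -0.40 (adjusted p = 0.0028).

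Cd44, a receptor of hyaluronan and osteopontin on the surface of the fusing cells, was read at 3 places of NM_009851 on the minus strand of chromosome 2. The probe at base 1777 (chr2:102677971-102678030) gave 5.95, 6.03 and 6.35 in Ano1fl/fl and 5.33, 5.58 and 5.30 in Ctsk-Cre;Ano1fl/fl. These dim values did not overlap. The log2 difference was -0.71 ± 0.14 (SE, limma adjusted p = 0.0059), and with normexp correction it was -0.31 (adjusted p = 0.012).

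Closer to the end of the same Cd44 transcript the groups overlapped. The probe at base 2614 (chr2:102654278-102654337) gave 12.55, 12.81 and 12.75 in Ano1fl/fl and 12.45, 12.50 and 12.65 in Ctsk-Cre;Ano1fl/fl, a log2 difference of -0.17 (95% interval -0.42 to 0.08, limma adjusted p = 0.21). The probe at base 4134 (chr2:102652758-102652817) gave 12.75, 13.01 and 12.86 in Ano1fl/fl and 12.72, 12.92 and 12.90 in Ctsk-Cre;Ano1fl/fl, a log2 difference of -0.03 (95% interval -0.28 to 0.22, limma adjusted p = 0.85). Of the 3 places read, the signal was called lower at base 1777 only.

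The split was tested on the difference between probes of a gene within each array, in 8 pairs of probes over 6 genes. The difference between probes did not overlap between groups for Cd47 (by 0.71 on the log2 scale), for Sirpa (0.90) and for the Cd44 probe at base 1777 against those at 2614 and 4134 (-0.54 and -0.68). Each reached the smallest exact two-sided permutation p that 3 against 3 arrays allow (p = 0.1, Benjamini-Hochberg adjusted 0.114 over the 8 pairs). That test cannot go below this value, and no moderated test of the pairs was run. The share without overlap among all same-gene probe pairs of the array was not computed. For single probes it was 64.0% of all tested. The pairs of Dcstamp (0.17), of Cd200 (-0.31) and of Cd44 at 2614 against 4134 (-0.15) also gave p = 0.1 with smaller gaps, and only the pair of Cd200r1 overlapped (-0.03, exact permutation p = 0.9). The mean over tested probes gave log2 differences of -0.32 for Cd47 (limma adjusted p = 0.0097), -0.40 for Sirpa (0.020) and -0.30 for Cd44 (0.037), all called lower as were 30.5% of all tested genes by that mean. With the brightest probe alone none of the 3 genes was called, beside 29.0% of all tested genes called lower.

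**Figure D4:**
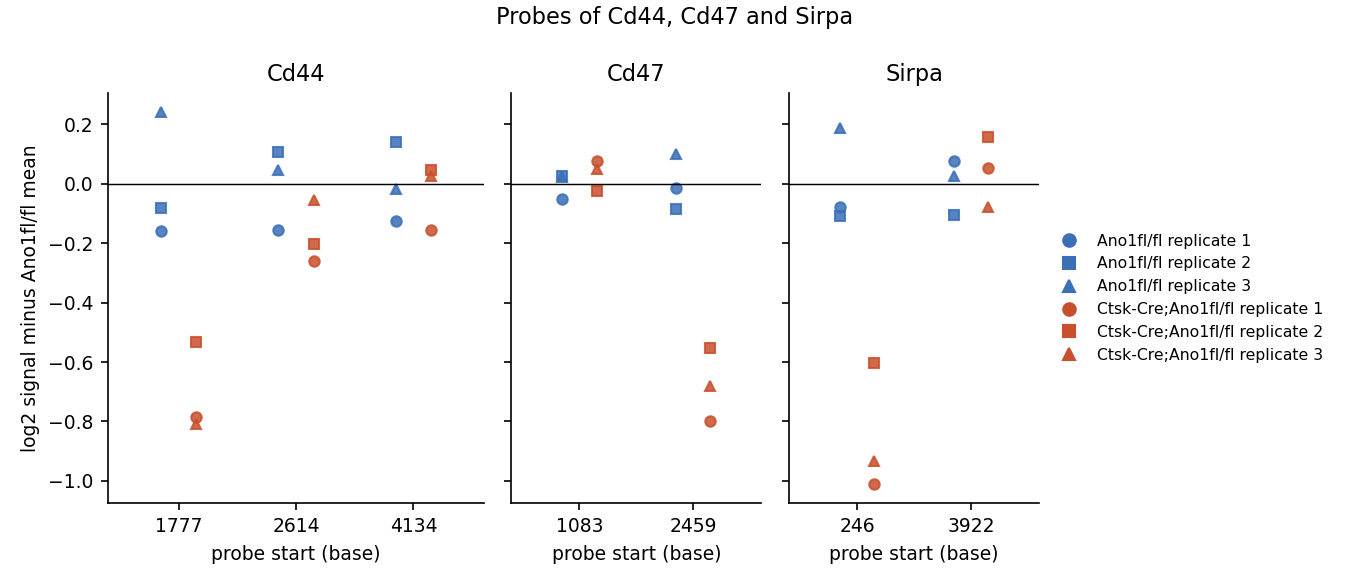
Log2 signal minus the Ano1fl/fl mean (vertical axis) on each array for the probes of Cd44, Cd47 and Sirpa, placed by the base of the transcript at which each starts. In each gene 1 probe shows all Ctsk-Cre;Ano1fl/fl arrays below all Ano1fl/fl arrays, by 0.68 to 0.85 on average, and the other probes overlap.

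The syncytins gave no usable level. Syna and Synb encode envelope proteins of retroviral origin that fuse trophoblast cells of the mouse placenta and have been linked to fusion of osteoclast precursors. The probe of Syna (chr5:135034130-135034189, minus strand) was not well above background on any of the 6 arrays. The probe of Synb (chr14:69909004-69909063, minus strand) was above background on 1 array, Ano1fl/fl replicate 2, with a log2 normalized signal of 4.58. No fold is given for either gene.

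Sh3pxd2a, whose product Tks5 organises the podosomes from which fusing cells extend their membranes, rose in Ctsk-Cre;Ano1fl/fl. Its probe at base 10309 (chr19:47334759-47334818, minus strand) gave 10.03, 10.25 and 10.35 in Ano1fl/fl and 12.00, 12.29 and 11.92 in Ctsk-Cre;Ano1fl/fl. The groups did not overlap, and the spread within each was small beside the gap. The log2 difference was 1.86 ± 0.13 (SE, limma adjusted p = 0.00013), or 3.62-fold. The gene's other probes, at base 1624 of the same transcript and on the opposite strand of the annotation (BC156910), were not well above background on any array, so the rise rests on 1 probe. Of the 12 stromal markers 11 were tested and 10 rose over the same arrays (4753 of all 20650 tested genes). Their part in the rise of Sh3pxd2a was not tested.

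Further genes of macrophage and osteoclast fusion, 27 in number, were described by their brightest tested probe. Of them, 11 were higher, 8 were lower and 8 were not called, with a median log2 difference of 0.09, beside a median of -0.06 over 20650 tested genes of which 4753 were higher and 5893 lower. Over their 53 tested probes 18 were higher and 19 lower (6943 and 9747 of all 31848). The largest rises were those of Atp6v0d2, a proton pump subunit needed for fusion (3.13, standard error 0.15, limma adjusted p = 2.9e-05), of the chemokine Ccl2 (2.29, standard error 0.35, limma adjusted p = 0.0024) and of the integrin chain Itgb3 (2.16, standard error 0.13, limma adjusted p = 7.1e-05). The largest falls were those of Ccr2, the receptor of Ccl2 on monocytes (-3.36, standard error 0.21, limma adjusted p = 7.4e-05), of the cell adhesion gene Cdh1 (-1.87, standard error 0.34, limma adjusted p = 0.0048, above background on 2 of 3 Ctsk-Cre;Ano1fl/fl arrays) and of the calcium-binding protein gene S100a4 (-1.72, standard error 0.16, limma adjusted p = 0.00037). Ligand and receptor of the Ccl2 pair changed in opposite directions. Of the neutrophil markers 4 of 6 were lower over the same arrays and 1 was higher, with sums of 120800 to 130700 in Ano1fl/fl and 36110 to 44060 in Ctsk-Cre;Ano1fl/fl, while the macrophage sums overlapped (350800 to 371800 and 369600 to 417400). The part of these cells in the changes was not tested. The count by gene depends on the choice of probe and on small differences. For Dnm2, other tested probes were called higher (0.55) and lower (-0.50). Its brightest probe (0.19), not called here, was higher under 7 of the alternatives, normexp correction and the series matrix among them. Ssb (-0.30) was no longer called lower without Ano1fl/fl replicate 1 or 2 or Ctsk-Cre;Ano1fl/fl replicate 1 (adjusted p = 0.055, 0.067 and 0.056).

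**Figure D5:**
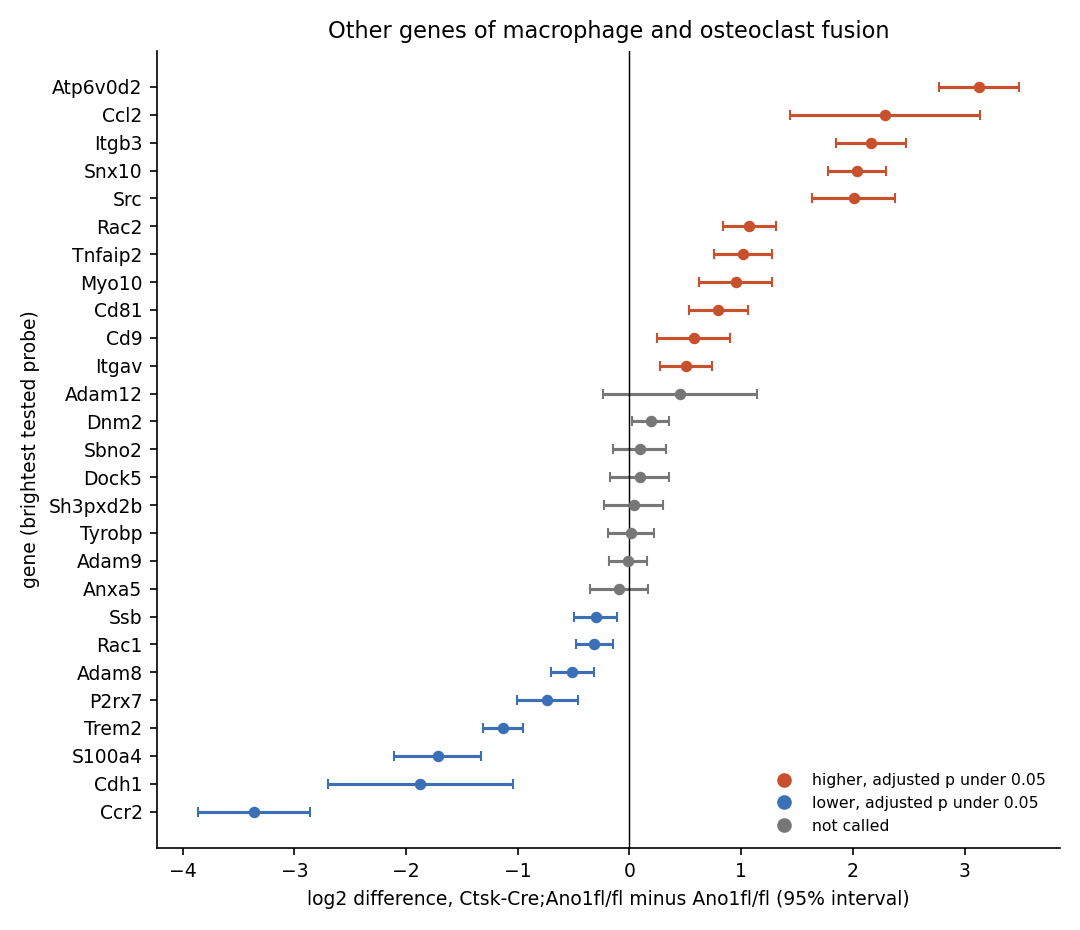
Log2 difference, Ctsk-Cre;Ano1fl/fl minus Ano1fl/fl, with its 95% interval (horizontal axis) for 27 further genes of macrophage and osteoclast fusion, each by its brightest tested probe and coloured by the call at an adjusted p under 0.05. They run from -3.36 for Ccr2 to 3.13 for Atp6v0d2, with 8 genes not called.

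Ligands, receptors and intracellular partners of the 10 genes gave small differences where they were called. Of 14 such genes 12 were tested, 5 were higher, 3 lower and 4 not called (over all 20650 tested genes 4753 were higher and 5893 lower), and the median log2 difference was 0.14 (-0.06 over all). None of the 8 called genes changed by more than 2-fold, while over all tested genes 2045 called higher and 1486 called lower did. Of the hyaluronan synthases, which make a Cd44 ligand, Has1 and Has3 were not tested and Has2 was dim and scattered (1.23 ± 0.73, SE, limma adjusted p = 0.20). The largest rises were those of Ezr and Msn, which link Cd44 to the actin cortex (0.48, limma adjusted p = 0.0087, and 0.45, limma adjusted p = 0.0052), and of Rasa1, a partner of the adaptors below Cd200r1 (0.26, limma adjusted p = 0.023). With 75th percentile scaling Rasa1 and the phosphatase genes Ptpn6 and Ptpn11, named here for this reason, were no longer called (adjusted p = 0.055, 0.13 and 0.25). Leaving out any single array also ended the call of Ptpn11, and leaving out any but Ctsk-Cre;Ano1fl/fl replicate 3 ended those of Rasa1 and Ptpn6. The largest falls were those of Ly6e, the receptor of syncytin A (-0.89, limma adjusted p = 0.0011), of Rdx, the relative of Ezr and Msn (-0.67, limma adjusted p = 0.0067), and of the Cd47 ligand Thbs1 (-0.59, limma adjusted p = 0.0085). Spp1, the osteopontin gene (-0.32), was not called but passed as lower with normexp correction, the series matrix, an intensity trend and without Ano1fl/fl replicate 3 (adjusted p = 0.027, 0.040, 0.022 and 0.037), and the adaptor gene Dok2 (-0.42) did so without Ano1fl/fl replicate 1 (0.011). Probes of Rdx differed, since its other tested probe gave -0.01 and was not called.

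The transcription factors linked to Dcstamp and Ocstamp did not move together. Nfatc1, the master factor of osteoclast formation, was higher by its brightest probe (0.53, limma adjusted p = 0.0039), and its other tested probe was lower (-0.53). Spi1, which encodes PU.1, was higher (0.48, limma adjusted p = 0.022), a call that was lost with no filter on dim probes (adjusted p = 0.053), with the methods' t-test after Benjamini-Hochberg adjustment (0.059), and without Ano1fl/fl replicate 1 (0.067) or 3 (0.069) or Ctsk-Cre;Ano1fl/fl replicate 1 (0.067) or 2 (0.062). Fos, the AP-1 subunit upstream of Nfatc1, was lower (-1.52, limma adjusted p = 7.2e-05), as was Mitf (-0.56, limma adjusted p = 0.0030). Irf8 and Bcl6, both repressors that act on osteoclast genes, and Tfe3 were not called, with log2 differences of 0.23, -0.10 and -0.18, although other tested probes of Irf8 and Bcl6 were lower (-0.60 and -0.72) and Tfe3 passed as lower with 75th percentile scaling (adjusted p = 0.026) and with an intensity trend (0.047). Without Ctsk-Cre;Ano1fl/fl replicate 2 Irf8 was called higher (0.43, adjusted p = 0.023), and without Ano1fl/fl replicate 1 the Bcl6 difference was 0.013. Of the 7 genes 2 were higher and 2 lower by the brightest probe (4753 and 5893 of all 20650), with a median of -0.10. Over their 14 tested probes 2 were higher and 8 lower (6943 and 9747 of all 31848).

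Near relatives of the members were checked because their transcripts resemble those of the members. Of 7 such genes 6 were tested, 1 was higher, 0 were lower and 5 were not called by the brightest probe (4753 higher and 5893 lower of all 20650), with a median log2 difference of -0.03. The higher one was Cd200r2, a relative of Cd200r1, which was dim and gave 4.32, 4.18 and 4.27 in Ano1fl/fl and 6.67, 6.87 and 6.79 in Ctsk-Cre;Ano1fl/fl. The groups did not overlap, and the log2 difference was 2.52 ± 0.09 (SE, limma adjusted p = 1.3e-05). Cd200r3, Cd200r4, Sirpb1a, Sirpb1b and Sh3pxd2b had log2 differences of -0.70, 0.33, -0.09, -0.20 and 0.04, none called. Cd200r4 was called higher without Ano1fl/fl replicate 1 (0.47, adjusted p = 0.015), and Cd200r3 lower without Ctsk-Cre;Ano1fl/fl replicate 1 (-1.02, adjusted p = 0.042). Sh3pxd2b encodes Tks4, the relative of Tks5, and its brightest probe did not share the rise of Sh3pxd2a, while its other tested probes were lower (-0.74 and -0.64).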

How the data were processed

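The authors deposited intensities of 6 single-dye arrays read with Agilent Feature Extraction 10.7.1.1, per the submitters' processing notes, and a series matrix equal to the spot medians. The background-corrected processed signal was used without control spots. Spots marked as outliers were treated as missing, and 14 probes left without a value were dropped. After a log2 transformation, signals were brought to a common distribution by the quantile method that the methods name, averaged per probe and compared with limma 3.58.1 in R 4.3.3, with Benjamini-Hochberg adjustment over all tested probes. The fit was tested on simulated data.

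Every probe of the 10 genes is named. From each further list the text names the 3 largest rises and 3 largest falls among called genes, and every transcription factor and near relative. The lists leave out 1 gene that is not reported here. Members and lists were chosen with earlier results of these data known, and the test between probes of a gene was added after the data were seen. Gene names and positions (mm9) are those of the array files. The exon or UTR that a probe reads was not looked up. Alternatives changed the scaling, background correction (normexp, offset 50), filter, choice of probe, test and arrays, or added a replicate block.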

Additional observations from a re-analysis of the deposited data

How the results depend on the processing

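The counts of 6 higher and 3 lower probes were the same under 75th percentile scaling, normexp correction, the series matrix, both other filters on dim probes, an intensity trend with robust moderation, outlier spots kept, the methods' t-test with and without Benjamini-Hochberg adjustment, and without each array in turn (6 to 6 higher and 3 to 3 lower). With a limit of more than 2-fold 6 probes were higher (8.91% of all tested probes) and 0 lower (8.11% of all), because the 3 lower probes changed by less. With the brightest probe of a gene 4 of 8 genes were higher and 0 lower (23.4% and 29.0% of all tested genes), and with the mean of its probes 4 were higher and 3 lower (22.1% and 30.5% of all). Reversals were limited to probes that were not called. With 75th percentile scaling Cd47 at base 1083 gave -0.059 and Sirpa at base 3922 gave -0.070. Leaving out 1 array gave -0.089 to 0.044 for Cd44 at base 4134, -0.012 to 0.106 for Sirpa at base 3922, and -0.231 to 0.122 and -0.212 to 0.067 for Cd200r1 at bases 1062 and 1470.

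Over all tested probes, samples with the same replicate number did not deviate together (correlations of -0.02, -0.09 and -0.09). With 3 arrays a group this cannot exclude a pairing of littermates, and the labels name none. For both Dcstamp probes and Ocstamp, replicate 1 was the lowest array in each group. Their standard errors were 0.22, 0.19 and 0.21 with a replicate block and 0.33, 0.32 and 0.32 without it. The fit with the replicate block called 6 higher and 3 lower probes of the fusion genes, and 5988 higher and 8162 lower probes in all, against 6943 and 9747 without it. Of the genes in the lists, Ptpn6, Ptpn11, Rasa1, Ssb and the neutrophil marker Ltf were no longer called with the block (limma adjusted p = 0.071, 0.096, 0.070, 0.064 and 0.061), and it changed no other call.

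With 3 arrays a group, 1 slide and no detectable Ano1, precision is limited by the number of arrays, and the dim probes of Cd44, Sirpa and Cd200 give sizes that move with the background correction. Rises of Ocstamp and Sh3pxd2a rest on 1 probe each.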
